A study of Mus musculus with 24 samples.

Results

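The collagen and laminin genes are the 46 genes on the array whose symbols have the form of a collagen chain (Col, a number, a, a number) or a laminin chain (Lama, Lamb or Lamc with a number), out of 12394 genes measured. They comprise 36 collagen chains and 10 laminin chains, covered by 74 probe sets, and 24 of them have more than 1 probe set, and the probe set with the highest mean across the 24 arrays stands for the gene. Collagens are secreted trimers that form the fibrils, filaments and sheets of the extracellular matrix. Type IV collagen and the laminins, each laminin built from an alpha, a beta and a gamma chain, make up the basement membrane that separates neural tissue from vessels and meninges. In the developing cerebellum the pial basement membrane covers the external granule layer, where granule neuron precursors, the cells that give rise to Shh-driven medulloblastoma, divide.

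The 24 arrays measured mouse RNA. Wild type cerebellum was sampled at postnatal day 6 (P6, 2 arrays) and in the adult (1 array). The age given for P6 replicate 2 conflicts with its title, and the title was followed. Primary medulloblastoma (MB, 3 arrays) came from adult Ptch1 mutant mice, in which loss of the Shh receptor gene Ptch1 drives tumors. The SMB21, SMB55 and SMB56 cell lines came from spontaneous tumors of Ptch+/- mice, are labelled Ptch1 mutant, and were grown as neurospheres in DMEM/F12 with B27 and antibiotics. Parental cultures gave 8 arrays (4 of SMB21, 2 of SMB55, 2 of SMB56). Growth factor (GF) cultures gave 1 array per line, from cells of that line exposed to heparin, bFGF (20 ng/mL) and EGF (20 ng/mL) during more than 3 weeks. RAS transformed cultures gave 7 arrays (3 of SMB21, 2 of SMB55, 2 of SMB56). Which RAS gene or allele was used, how it was delivered, and whether a line or a RAS culture is 1 clone are not given in the labels. The replicates are called biological, but nothing says which animals or cultures they came from, so p-values measure the spread between these arrays only. Levels are log2 of the deposited intensity plus 16, changes are differences of such levels with their standard error (SE), and a gene is called changed at a limma p under 0.05 after Benjamini-Hochberg adjustment over all 12394 genes.

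Array medians lay between 188.8 and 245.1 in linear intensity. Across genes, P6 replicates correlated at 0.997, and SMB21 parental replicates 2 to 4 at 0.992 to 0.996. SMB21 parental replicate 1 stood apart from the other parental arrays of its line, at most 0.971. The 2 parental arrays of SMB55 correlated at 0.978 and those of SMB56 at 0.944, and a pair cannot show which array deviates. Between parental replicates 1 and 2 of SMB21, SMB55 and SMB56, 5, 14 and 16 of the 46 members were over 1 log2 unit apart. Of all genes, 6.13%, 5.08% and 11.1% were. Atoh1, the defining gene of granule neuron precursors, was high in the tumors (11.25 to 12.71) and parental cultures (11.79 to 12.97). It lay between 5.40 and 7.63 in RAS cultures, and at 6.28, 11.19 and 6.47 in the GF cultures of SMB21, SMB55 and SMB56.

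Promoter stretches of 5 genes are shown because the results turn on their genes: Col6a1, Col6a2 and Col18a1, neighbours on chromosome 10 that rose with RAS, and Col1a2 and Col3a1, the fibrillar collagens with the largest falls from cerebellum to the cell lines. Each is the 250 bases before a start of the gene in RefSeq on GRCm38.p6, read 5′ to 3′ on the gene's own strand: chr10:76726045-76726294 (minus) for Col6a1, chr10:76623631-76623880 (minus) for Col6a2, chr10:77166531-77166780 (minus) for Col18a1, chr6:4505368-4505617 (plus) for Col1a2 and chr1:45311288-45311537 (plus) for Col3a1. Capitals mark any match, on either strand, to the AP-1 motif, the TATA box, the CCAAT box or the GC box, and no marked match overlaps another. Col6a2 and Col18a1 each have another RefSeq start, whose stretch overlaps the annotated gene and is not shown. That stretch holds 3 GC boxes for Col6a2 and none of these motifs for Col18a1.
Col6a1: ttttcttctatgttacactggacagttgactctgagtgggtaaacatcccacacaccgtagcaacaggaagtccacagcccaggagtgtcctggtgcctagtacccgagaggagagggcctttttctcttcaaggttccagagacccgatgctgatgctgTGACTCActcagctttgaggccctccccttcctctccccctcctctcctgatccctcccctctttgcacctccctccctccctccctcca
Col6a2: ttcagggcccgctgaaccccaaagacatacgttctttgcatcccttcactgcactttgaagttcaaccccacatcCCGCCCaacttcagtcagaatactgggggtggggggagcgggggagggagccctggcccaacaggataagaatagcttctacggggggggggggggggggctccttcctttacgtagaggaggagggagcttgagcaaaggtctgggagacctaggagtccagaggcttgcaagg
Col18a1: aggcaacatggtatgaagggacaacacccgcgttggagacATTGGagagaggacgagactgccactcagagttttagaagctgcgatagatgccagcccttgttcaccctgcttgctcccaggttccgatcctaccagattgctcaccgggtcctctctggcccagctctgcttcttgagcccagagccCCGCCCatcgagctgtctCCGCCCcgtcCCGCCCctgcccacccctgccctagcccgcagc
Col1a2: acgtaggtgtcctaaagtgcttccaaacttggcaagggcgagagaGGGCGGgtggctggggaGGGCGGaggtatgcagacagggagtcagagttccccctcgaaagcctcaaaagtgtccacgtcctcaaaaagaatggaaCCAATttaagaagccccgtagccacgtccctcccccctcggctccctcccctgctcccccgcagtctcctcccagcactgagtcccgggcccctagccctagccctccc
Col3a1: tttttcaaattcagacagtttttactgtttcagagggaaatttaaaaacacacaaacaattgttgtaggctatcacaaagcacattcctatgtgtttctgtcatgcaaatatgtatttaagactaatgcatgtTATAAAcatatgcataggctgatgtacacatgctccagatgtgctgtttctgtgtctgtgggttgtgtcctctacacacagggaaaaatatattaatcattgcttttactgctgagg
The AP-1 motif was searched as TGACTCA and is bound by a factor activated downstream of RAS and MAPK signalling. The Col6a1 stretch holds it once, 90 bases before the start, and it was the only match among 36 windows of the 32 members with a RefSeq promoter (2.78%, against 4.46% of all 32851 windows). The TATA box, searched as TATAAA, was found in 13.9% of member windows and 12.4% of all windows. The CCAAT box was found in 36.1% and 33.8%. The GC box, searched as GGGCGG, was found in 18 of 36 member windows and 32.7% of all. A match is a run of letters and was not tested as a binding site.

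**Figure D1:**
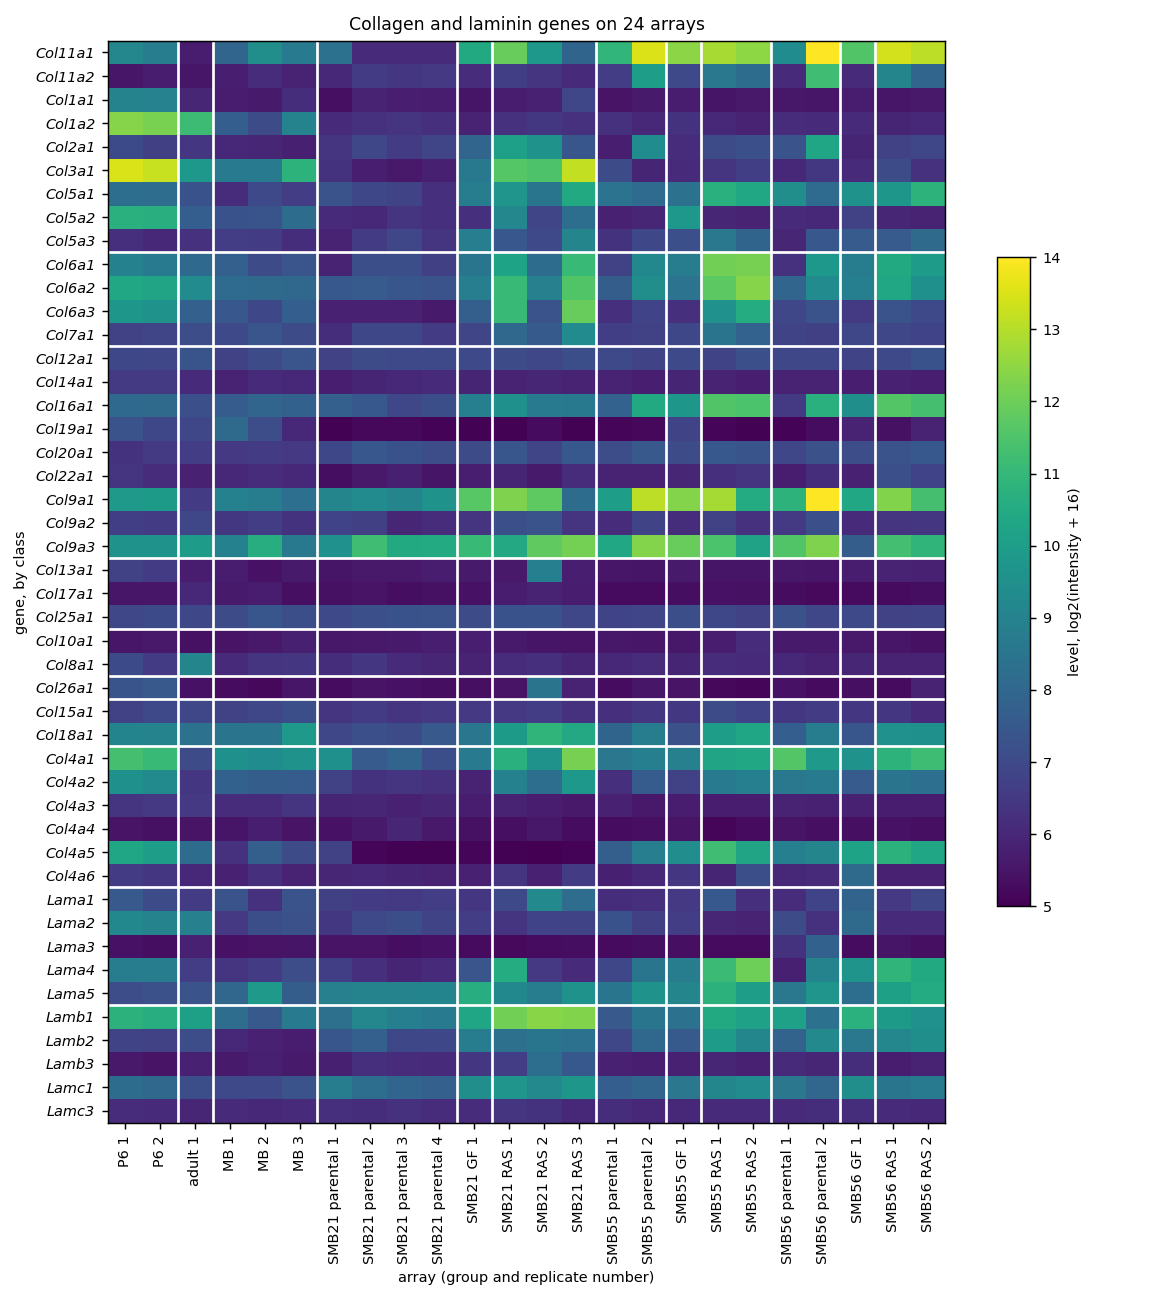
Levels of the 46 collagen and laminin genes (rows, grouped by class) on the 24 arrays (columns, grouped by tissue, line and treatment), in log2(intensity + 16). Colors compare arrays within a row, since probes of different genes are not on a common scale; Col1a2 and Col3a1 are bright in the 3 cerebella, and the collagen VI rows in most RAS arrays.

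Col1a2, Col6a2, Lama2 and Lamb1 were lower in tumors than in normal cerebellum. Of the 46 members, 4 were called between MB and normal cerebellum (8.7%, against 8.68% of all genes), all lower in MB. The median change over the 46 was -0.29, against 0.04 over all genes. The share called thus lay at the background.

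Col1a2 encodes the alpha-2 chain of collagen I, the main fibril of meninges and vessel walls. It read 12.37 and 12.20 at P6, 11.16 in the adult and 7.68, 7.09 and 9.02 in tumors 1 to 3. The groups did not overlap, and tumor 3 was the highest tumor. The change was -3.98 (SE 0.50, 15.8-fold lower, limma adjusted p = 0.00405), with means of 11.91 ± 0.66 (SD, n = 3) and 7.93 ± 0.99 (n = 3). Lama2, the laminin alpha-2 chain known from muscle and from the glial and vascular basement membranes of the brain, read 9.20, 9.03 and 8.93 in the 3 cerebella and 6.50, 7.15 and 7.22 in the tumors. Each tumor was below each cerebellum, and the change was -2.10 (SE 0.20, adjusted p = 0.00117). Lamb1, the beta chain of most embryonic laminins, read 10.77, 10.61 and 10.12 against 8.22, 7.51 and 8.72, also without overlap. Its change was -2.35 (SE 0.40, adjusted p = 0.0132). Col6a2, a chain of the beaded collagen VI filaments, read 10.38, 10.27 and 9.33 in cerebellum and 8.13, 8.10 and 8.0 in tumors, a change of -1.92 (SE 0.38, adjusted p = 0.0232). The adult array was the lowest cerebellum for each of these 4 genes.

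The Col6a2 call was lost on leaving out any 1 of P6 replicate 1 (adjusted p = 0.0662), P6 replicate 2 (0.0773), the tumors (0.0629, 0.0702 and 0.0813) or SMB55 parental replicate 1 (0.0564), and the Lamb1 call without P6 replicate 2 (0.0516). The Lama2 call was lost in a fit of P6 and tumor replicates 1 and 2 with the replicate number as a block (limma adjusted p = 0.0531). Without the adult cerebellum 13 members were called, all lower in MB, and without P6 replicate 2 only 2 were. Col3a1, the collagen III chain that assembles with collagen I, read 13.49, 13.26 and 9.80 against 8.72, 8.73 and 10.83. Tumor 3 lay above the adult array, and the change of -2.76 (SE 1.00) did not pass (adjusted p = 0.126). Col1a1 changed by -2.15 (SE 0.75, adjusted p = 0.114), Lama4 by -1.39 (SE 0.64, adjusted p = 0.205) and Lamc1 by -0.69 (SE 0.27, adjusted p = 0.151). For Lama5, the alpha chain of mature epithelial and vascular laminins, the value in MB was higher by 1.25 (SE 0.50, adjusted p = 0.155). Col18a1, Col4a1, Col4a2 and Lama1 had changes of 0.09, -0.34, -0.71 and -0.11, none called.

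Fibroblast and meningeal markers moved with these genes. Their summed linear intensity over 14 markers was 18511 to 19680 at P6, 22162 in the adult and 2711 to 13254 in MB, and 7 of the 14 were called lower in MB and 0 higher. Tumor 3, which had the highest Col1a2 and Col3a1 of the tumors, also had the highest Dcn (10.50, against 8.54 and 6.90 in tumors 1 and 2) and Lum (9.54, against 7.12 and 5.46). Of 9 pericyte and smooth muscle markers 3 were called lower, and of 10 endothelial markers 1, against 8.68% of all genes called in either direction. The part of these cells in the result was not tested. In such tissue RNA, fewer matrix-producing cells and less RNA per cell cannot be told apart.

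The single adult cerebellum differed from the P6 pair in many members, which bears on the spread of the control group. The adult value lay more than 1 log2 unit below the P6 mean for 12 of 46 members (26.1%, against 8.81% of all genes) and above it for 1 (2.17%, against 9.24%). Basement membrane collagen IV was among them: Col4a1 was 11.34 and 11.08 at P6 and 7.09 in the adult, and Col4a2 9.52, 9.28 and 6.41. Col4a1 and Col4a2 form the ubiquitous collagen IV trimer and lie head to head in the genome. Col3a1, Col11a1, Col9a1, Col1a1, Col5a2, Lama4, Col4a5, Col26a1, Col6a3 and Col1a2 made up the rest, with adult minus P6 differences from -3.57 for Col3a1 to -1.13 for Col1a2. The exception, Col8a1, a short-chain network collagen of vessels, read 9.10 in the adult and 7.02 and 6.55 at P6. With 1 adult array these are values without a test.

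**Figure D2:**
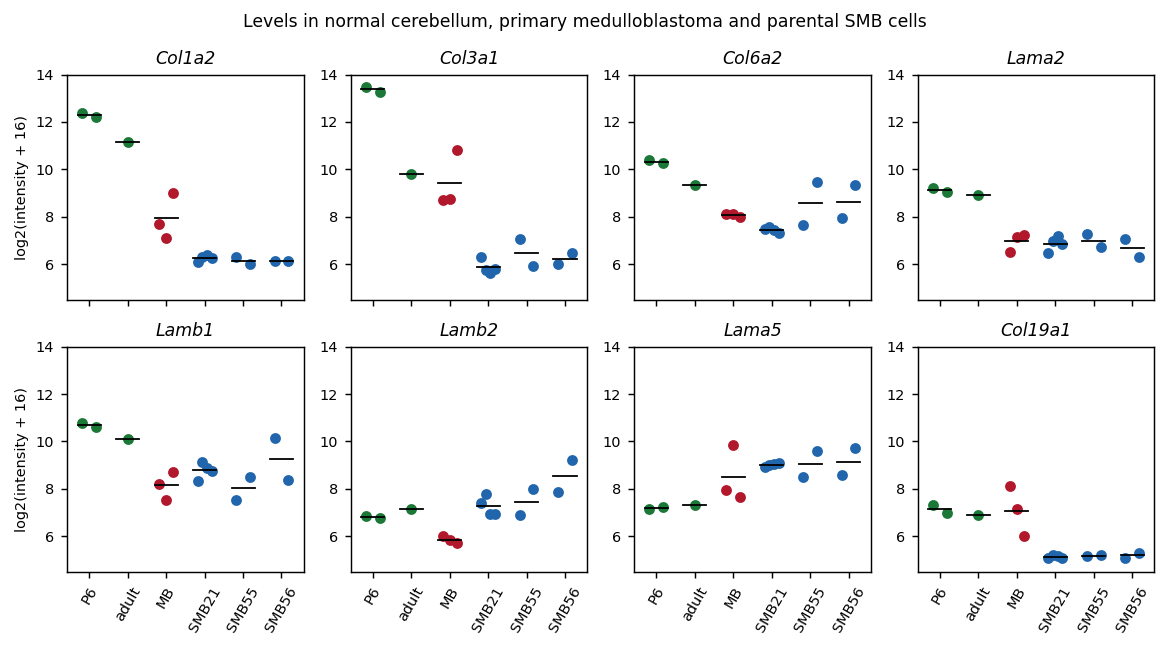
Levels of 8 members in log2(intensity + 16) on each array of P6 and adult cerebellum (green), MB (red) and parental SMB cultures by line (blue), with group means as bars. The means of Col1a2 and Col3a1 are lower in MB than in cerebellum and lowest in the cell lines (6.01 to 6.40 for Col1a2 in culture). For Col3a1, tumor 3 (10.83) lies above the adult cerebellum (9.80), and the fall to MB was not called. Neither gene was called between MB and the cell lines. Lamb2 is lower in MB than in every other array shown.

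Parental SMB cultures had far lower levels of the fibrillar chains Col1a2, Col3a1 and Col5a2 than cerebellum. Lama5 was higher in them than in cerebellum, and Lamb2 higher than in MB. Both tissue comparisons counted each line once, as the mean of its parental arrays, and both use those same 3 line means. Against normal cerebellum 14 members were called (30.4%, against 22.6% of all genes), 3 higher and 11 lower, with a median of -0.39 against 0.07 for all genes. Against MB 3 members were called (6.52%, against 11.1% of all genes), 2 higher and 1 lower. That share is below the background, and the median of -0.02 was near that of all genes (0.03).

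Col1a2 in the 8 parental cultures ran from 6.01 through a median of 6.20 to 6.40, below every tissue array. Its change from cerebellum was -5.73 (SE 0.50, 53.2-fold, adjusted p = 0.000471). Col3a1 ran from 5.62 through 5.96 to 7.04, with SMB55 parental replicate 1 the highest, and changed by -5.99 (SE 1.00, 63.5-fold, adjusted p = 0.00647). The other called falls were Col5a2, a regulatory chain of collagen V fibrils and the neighbour of Col3a1 (-3.65, SE 0.75, adjusted p = 0.0141), Col6a3 (-2.58), Lama2 (-2.21), Col19a1 (-1.89), Lamb1 (-1.82), Col6a2 (-1.78), Col4a3 (-0.62), Col14a1 (-0.50) and Col15a1 (-0.45). Col1a1 changed by -2.40 (SE 0.75, adjusted p = 0.0539), from 9.04 and 9.00 at P6 and 5.96 in the adult to between 5.36 and 5.86 in culture.

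Lama5 was 7.14, 7.24 and 7.31 in the cerebella and ran from 8.51 through 9.03 to 9.71 in parental cultures, with no overlap. The change was 1.84 (SE 0.50, 3.58-fold higher, adjusted p = 0.036). Col11a2, a chain of the cartilage-type collagen XI fibril, was higher by 2.19 (SE 0.52, adjusted p = 0.0234), and Col20a1, a small fibril-associated collagen, by 0.70 (SE 0.12, adjusted p = 0.00616). Against MB, Lamb2, the beta chain of synaptic and kidney laminins, went from 6.03, 5.84 and 5.70 in the tumors to line means of 7.76 ± 0.68 (SD, n = 3), a change of 1.90 (SE 0.31, adjusted p = 0.0114). Parental cultures ran from 6.91 to 9.22, all above the tumors. Col20a1 was higher by 0.66 (SE 0.12, adjusted p = 0.0138), and Col19a1, a fibril-associated collagen expressed by some neurons, changed by -1.91 (SE 0.46, adjusted p = 0.0373).

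Single arrays decided several of these calls. Without P6 replicate 1, or without P6 replicate 2, 7 members were called against cerebellum, and without line SMB55 or SMB56, 9. The calls of Col11a2, Col14a1, Col15a1, Col19a1, Col6a3, Lama5 and Lamb1 against cerebellum were lost on leaving out either P6 array (Lama5, adjusted p = 0.0872 and 0.083), and that of Col6a2 without SMB55 parental replicate 1 (0.0682) or SMB56 parental replicate 1 (0.0527). Lama5 also lost its call without the adult array (0.0565) or parental replicate 2 of SMB55 (0.0576) or SMB56 (0.0597). Lamb1 lost its call without SMB56 parental replicate 2 (0.088), and Col11a2 without SMB55 replicate 2 (0.0667), SMB56 replicate 1 (0.0693) or SMB56 replicate 2 (0.11). Col19a1, Lama5, Col14a1 and Col15a1 also lost theirs without any 1 line, the last pair without several other arrays too, Col11a2 without line SMB55 or SMB56, and Col6a3 without line SMB21. Against MB the count was 1 without tumor 1, 11 without the adult cerebellum, which enters through the shared estimate of the spread, and 5 without tumor 2, SMB55 parental replicate 1, SMB21 parental replicate 2, SMB21 parental replicate 4 or the line SMB21. The Col19a1 call was lost without either P6 array, tumor 1, tumor 2 or any line, and the Col20a1 call without tumor 1 or tumor 3. Col1a2, Col3a1, Col5a2, Lama2, Col4a3 and Col20a1 against cerebellum, and Lamb2 against MB, kept their calls under every alternative run.

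Markers of other cells also fell from cerebellum to culture, a comparison in which 22.6% of all genes were called. Of the 14 fibroblast and meningeal markers 8 were called lower and 1 higher, of 10 endothelial markers 6 lower and 0 higher, and of 9 pericyte and smooth muscle markers 5 lower and 0 higher. The summed fibroblast intensity was 3474 to 13442 in parental cultures, where Aldh1a2 and Slc6a13 lay below the lower quartile of all genes on every array. The endothelial gene Tek did so on all cultures and Emcn on all parental arrays, as did Pecam1 and Tie1, which were as low in cerebellum. Cdh5 read 5.21 to 6.91 in parental cultures but 10.36 in SMB21 GF. The summed endothelial intensity was 678 to 1093 in parental cultures against 7397 to 7582 at P6 and 1440 in the adult. The part of these cells in the result was not tested.

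Lamc1 was higher in GF than in parental cultures, a call that did not hold in the paired fit. Of the 46 members this 1 was called (2.17%, against 8.95% of all genes), and 7 had an unadjusted limma p under 0.05. The median change was 0.13, against -0.01 over all genes. Lamc1, the gamma chain shared by most laminins, read 9.43, 8.56 and 9.45 in the GF cultures of SMB21, SMB55 and SMB56. Parental cultures ran from 7.69 through 7.95 to 8.81, and in each line the GF value lay above every parental value, although the groups overlapped across lines. The change was 1.10 (SE 0.27, 2.14-fold, adjusted p = 0.0214). GF arrays carry the number 1 and share it with parental replicate 1, and with that number as a block no member was called and Lamc1 had an adjusted p of 0.14. The call was also lost without the GF array of SMB21 (0.0889) or SMB56 (0.154), and with the parental arrays numbered 1 as the only controls (0.137). Without the SMB21 GF array 2 members were called, and without the SMB56 GF array 0.

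Several members were high in 1 GF culture only. Col5a2 read 9.80 in SMB55 GF and 6.26 and 6.77 in the other GF cultures, against 5.82 to 6.34 in parental cultures. Col3a1 read 8.65 in SMB21 GF, against 6.11 and 6.06 in the others, and Col4a6 read 8.10 in SMB56 GF, against 5.83 and 6.41. Col9a3, a chain of the cartilage fibril-associated collagen IX, was low in SMB56 GF alone (7.64, against 11.07 and 11.90). Lamb1 had a change of 1.26 (SE 0.56, adjusted p = 0.191), Lama4 of 1.34 (SE 0.88, adjusted p = 0.412), Lama1 of 0.54 and Col18a1 of -0.02 (SE 0.44, adjusted p = 0.985), none called. With 1 array per line, these values have no test within a line.

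RAS cultures had higher levels than parental cultures of the 3 collagen VI chains, Col18a1, the collagen V chains Col5a1 and Col5a3, the collagen IV chains Col4a1 and Col4a2, and the laminin chains Lamb1, Lamc1, Lamb2 and Lama4. Of the 46 members, 17 were called and all 17 were higher (37%, against 32.1% of all genes called in either direction, of which 1750 were higher and 2224 lower). The median change was 0.56, against -0.05 over all genes. The count stayed between 17 and 19 on leaving out any 1 of the 18 culture arrays. With 1 mean per line and treatment, which takes the lines as the replicates, 4 remained called: Col16a1, Col5a1, Col6a1 and Lama4. RAS and GF cultures were compared with the same parental arrays.

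The collagen VI chains Col6a1, Col6a2 and Col6a3 assemble into beaded filaments at the border of basement membrane and interstitial matrix. Col6a1 ran from 5.85 through 6.95 to 9.81 in parental cultures and from 8.19 through 10.45 to 12.14 in RAS cultures. By line, RAS arrays read 10.23, 8.19 and 11.06 in SMB21, 12.09 and 12.14 in SMB55, and 10.45 and 9.97 in SMB56. Within each line every RAS array lay above every parental array, and in SMB56 the nearest parental array was replicate 2 (9.81). The change over the lines was 3.14 (SE 0.57, 8.82-fold, adjusted p = 0.000783). Col6a2, which lies next to Col6a1, ran from 7.30 through 7.62 to 9.46 in parental and from 8.91 through 11.09 to 12.36 in RAS cultures. It too was higher in RAS arrays within each line, and changed by 2.72 (SE 0.46, adjusted p = 0.000457). Col6a3, the chain with the longest filament-forming arm, separated in SMB21 (11.07, 7.29 and 11.91 against 5.65 to 5.84) and SMB55 (9.56 and 10.58 against 6.26 and 6.81). In SMB56 its RAS arrays (7.31 and 6.98) overlapped the parental ones (6.92 and 7.32). The change over the lines was 2.96 (SE 0.70, adjusted p = 0.00466). In SMB21, RAS replicate 2 was the lowest RAS array for all 3 chains.

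Collagen XVIII, the basement membrane proteoglycan whose C-terminal fragment is endostatin, was the 1 member without overlap between all RAS and all parental arrays (2.17% of members). Of all genes, 3.72% lay above without overlap and 3.75% below, and 32.1% were called. Col18a1 ran from 6.91 through 7.59 to 8.82 in the 8 parental cultures and from 9.51 through 10.04 to 10.90 in the 7 RAS cultures. GF cultures of SMB21, SMB55 and SMB56 read 8.54, 7.23 and 7.42, within the parental range pooled over the lines. Within SMB21 the GF value lay above every parental array (6.91 to 7.50). It lay below both parental arrays in SMB55 (7.89 and 8.82) and in SMB56 (7.68 and 8.79). The change was 2.35 (SE 0.33, 5.1-fold, adjusted p = 0.00012), and with 1 mean per line and treatment its adjusted p was 0.0714. Among genes with several probe sets, the unused ones had a plain RAS minus parental difference of 2.85 for Col18a1 (used, 2.36), but smaller ones for Col3a1 (0.81, used 2.84), Col5a1 (0.55 and 1.61, used 2.35), Col6a2 (1.72, used 2.77), Lama4 (1.41, used 2.77), Lamb1 (2.11 and 1.33, used 2.27), Lamc1 (0.92, used 1.08) and Col4a1 (1.20, used 1.86).

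Among fibrillar collagens 3 of 9 were called higher (33.3%, near the 32.1% of all genes). Col5a1, the chain that nucleates collagen fibrils, ran from 6.23 through 7.74 to 9.43 in parental and from 8.49 through 10.38 to 10.81 in RAS cultures, with a change of 2.27 (SE 0.34, adjusted p = 0.000171). Col5a3 changed by 1.41 (SE 0.34, adjusted p = 0.00595), while its second, dimmer probe set differed by -0.03. Col3a1 passed the test (3.01, SE 0.81, adjusted p = 0.0108) through SMB21 alone: its RAS arrays read 11.63, 11.49 and 13.16 there against 5.62 to 6.32 in the parental arrays. In SMB55 RAS arrays read 6.35 and 6.68 against 7.04 and 5.92, and in SMB56 7.09 and 6.30 against 6.01 and 6.45, with overlap in both. Col1a2 stayed between 5.86 and 6.45 in RAS cultures (change -0.07, SE 0.09, adjusted p = 0.608), and Col1a1, whose highest RAS value was 6.91 in SMB21 replicate 3, had a change of 0.23 (SE 0.16, adjusted p = 0.311). Neither collagen I chain passed the test, unlike chains of collagens III, V and VI. Col1a1 lay below the lower quartile of all genes on 21 of the 24 arrays, so its probe set could hardly show a change.

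Fibril-associated Col16a1 ran from 6.53 to 10.71 in parental and from 8.64 to 11.59 in RAS cultures and changed by 2.16 (SE 0.52, adjusted p = 0.00565). Col7a1, the anchoring fibril collagen of skin, changed by 1.16 (SE 0.28, adjusted p = 0.0053), and Col22a1 by 0.56. Col17a1 was also called higher but lay below the lower quartile of all genes in both groups, and its call was lost when arrays were centred on their medians (adjusted p = 0.169). All 4 measured collagen VI and VII chains were called higher. Of 9 fibril-associated collagens 2 were (22.2%), and of 6 collagen IV chains 2 (33.3%), shares below and near the 32.1% of all genes, and none of these classes had a lower call.

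In the basement membrane, Col4a1 ran from 7.15 through 8.73 to 11.58 in parental cultures and from 9.60 through 10.72 to 12.15 in RAS cultures. The highest parental value was SMB56 replicate 1, above both RAS arrays of its line (10.81 and 11.20). That array also stood out in the smooth muscle gene Tagln (10.94, against 6.22 to 6.83 in the other parental arrays) and the fibroblast gene Ogn (10.14, against 5.14 to 5.62). The change in Col4a1 was 1.80 (SE 0.47, adjusted p = 0.00924), and that in its partner Col4a2 was 1.60 (SE 0.38, adjusted p = 0.00498). Lamb1 ran from 7.53 through 8.63 to 10.15 in parental and from 9.57 through 10.46 to 12.39 in RAS cultures, with the SMB21 RAS arrays highest (12.07, 12.39 and 12.31), and changed by 2.35 (SE 0.43, adjusted p = 0.000838). Lamc1, its gamma partner, changed by 1.11 (SE 0.21, adjusted p = 0.000994), close to its GF change. Lamb2 changed by 1.31 (SE 0.30, adjusted p = 0.00391).

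Of the alpha chains only Lama4, the chain of vascular and mesenchymal laminins, was called over the lines (2.62, SE 0.67, adjusted p = 0.00804). It read 10.57, 6.51 and 6.08 in SMB21 RAS arrays, so that RAS replicates 2 and 3 lay within the parental range of 5.94 to 6.68. In SMB55 it read 11.14 and 12.02 against 6.92 and 8.49, and in SMB56 10.89 and 10.47 against 5.80 and 9.04. With parental replicate 1 of each line and the GF arrays left out, a comparison chosen after the data were seen, the Lama4 call was lost (adjusted p = 0.0623) and 17 members were called. Lama1 (0.92, SE 0.35, adjusted p = 0.0593), Lama5 (0.81, SE 0.36, adjusted p = 0.0975) and Lama2 (-0.53, SE 0.23, adjusted p = 0.0954) did not pass.

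**Figure D3:**
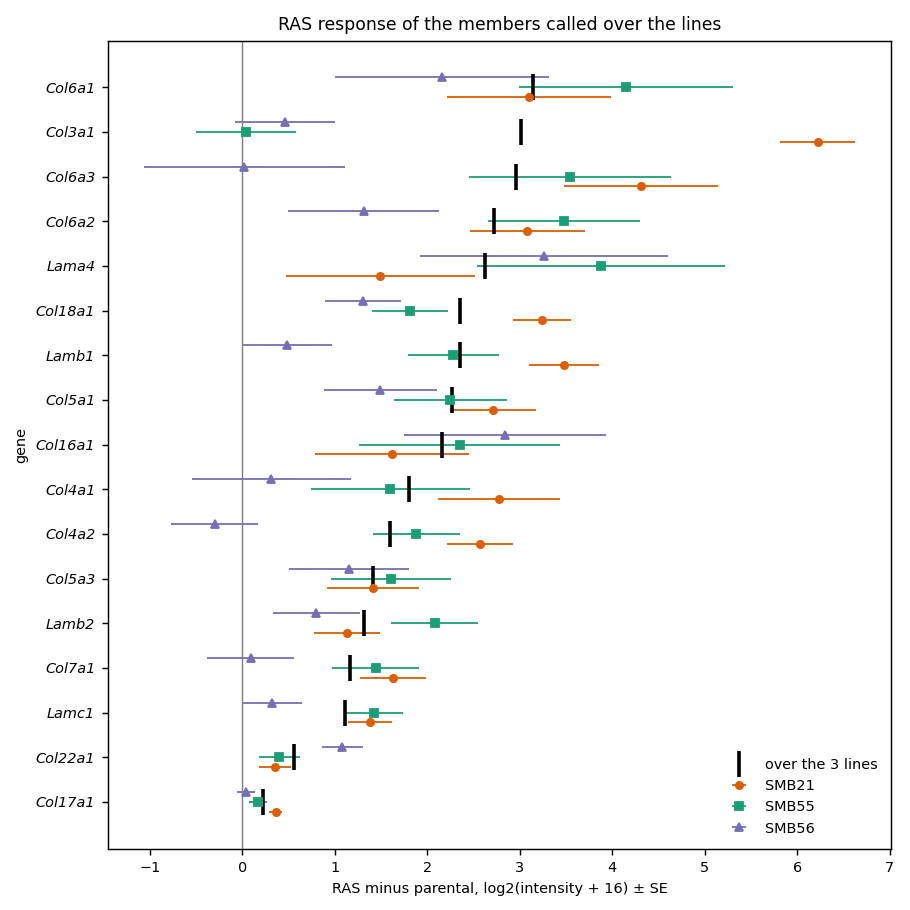
RAS minus parental difference in log2(intensity + 16) for the 17 members called over the lines (rows), in SMB21 (circles), SMB55 (squares) and SMB56 (triangles) with limma standard errors, and over the 3 lines (black ticks). Col3a1 is 6.22 in SMB21 and near 0 in the other lines, while the SMB56 values of Col6a3 (0.02) and Col4a2 (-0.30) sit apart from those of SMB21 and SMB55.

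Within lines, the RAS arrays of 6 members lay above every parental array of their own line in all 3 lines: Col16a1, Col18a1, Col5a1, Col5a3, Col6a1 and Col6a2 (13% of members, against 6.75% of all genes). None lay below in all lines, against 7.81% of all genes. In SMB21, 15 members were called, all higher (32.6%, against 19.4% of all genes). In SMB55, 13 were called, 12 higher and 1 lower (28.3%, against 21.5%), and in SMB56 2, 1 higher and 1 lower (4.35%, against 12%). These counts do not show by themselves that lines differ. The test of the difference called 2 members (4.35%, against 3.45% of all genes).

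Col3a1 was one, with responses of 6.22 (SE 0.41, 74.3-fold) in SMB21, 0.04 (SE 0.54) in SMB55 and 0.46 (SE 0.54) in SMB56 (adjusted p = 0.00112), and it kept its call under every alternative run. Col4a2 was the other, with 2.57 (SE 0.36), 1.88 (SE 0.47) and -0.30 (SE 0.47) and an adjusted p of 0.048. Its parental arrays in SMB56 (8.61 and 8.74) lay just above its RAS arrays (8.46 and 8.28). That call was lost without any 1 of SMB56 RAS replicate 1 (0.112), SMB56 RAS replicate 2 (0.169), either RAS array of SMB55 (0.0817 and 0.0693), SMB21 RAS replicate 1 (0.0567), SMB21 parental replicates 2 to 4 (0.0862, 0.0952 and 0.0936) or either SMB56 parental array (0.0959 and 0.0665), while leaving out SMB21 RAS replicate 2 gave 4 called members. Lamb1 had responses of 3.48, 2.28 and 0.48, with an adjusted p of 0.0512 for the difference.

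In SMB21 the largest called responses after Col3a1 were Col6a3 (4.31, SE 0.83, adjusted p = 0.00434), Lamb1 (3.48, SE 0.38, adjusted p = 0.000117), Col18a1 (3.24), Col6a1 (3.10) and Col6a2 (3.08), while Col11a1 was not called (3.22, SE 1.23, adjusted p = 0.0926). Of these, Col6a1 lost its call without any 1 of the 4 parental arrays of SMB21 (0.072, 0.053, 0.0538 and 0.0647), RAS replicate 1 (0.103) or RAS replicate 3 (0.108). Lama1 (1.53) lost its call without any parental array of the line, RAS replicate 2 (0.111) or RAS replicate 3 (0.0767). Replicate 2 of the SMB21 RAS cultures had a pattern of its own: Col13a1 (8.88), Col26a1 (8.45), Lama1 (9.23) and Lamb3 (8.26) were highest there, and Col13a1 and Col26a1 read 5.63 and 5.74, and 5.47 and 5.86, in RAS replicates 1 and 3. Col13a1 is a transmembrane collagen of cell contacts, and Lamb3 the beta chain of epithelial laminin.

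In SMB55 the largest called responses were Col6a1 (4.15, SE 1.16, adjusted p = 0.0258), Col6a3 (3.54), Col6a2 (3.48), Col4a5 (2.44), Lamb1 (2.28) and Col5a1 (2.25), and Lama2 was lower (-1.05, SE 0.29, adjusted p = 0.0235). Lama4 (3.88, SE 1.34, adjusted p = 0.0612) and Col16a1 (2.35, SE 1.09, adjusted p = 0.158) did not pass. Without parental replicate 1, 0 of the 46 members were called in SMB55, with 1 parental array left there. The 13 differences kept their direction: Col5a1 was 2.38 (adjusted p = 0.0866), Col6a3 3.26 (0.178), Lamb1 1.80 (0.0793) and Col6a1 2.92 (0.215). Without RAS replicate 1 or RAS replicate 2 of SMB55, 5 were called. In SMB56, Col22a1 was higher by 1.08 (SE 0.22, adjusted p = 0.0119) and Lama3, the alpha chain of epithelial laminin, changed by -1.62 (SE 0.33, adjusted p = 0.0118), from 6.33 and 7.81 to 5.50 and 5.38. There 7 members were called without parental replicate 2, and 1 without parental replicate 1 or either RAS array.

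**Figure D4:**
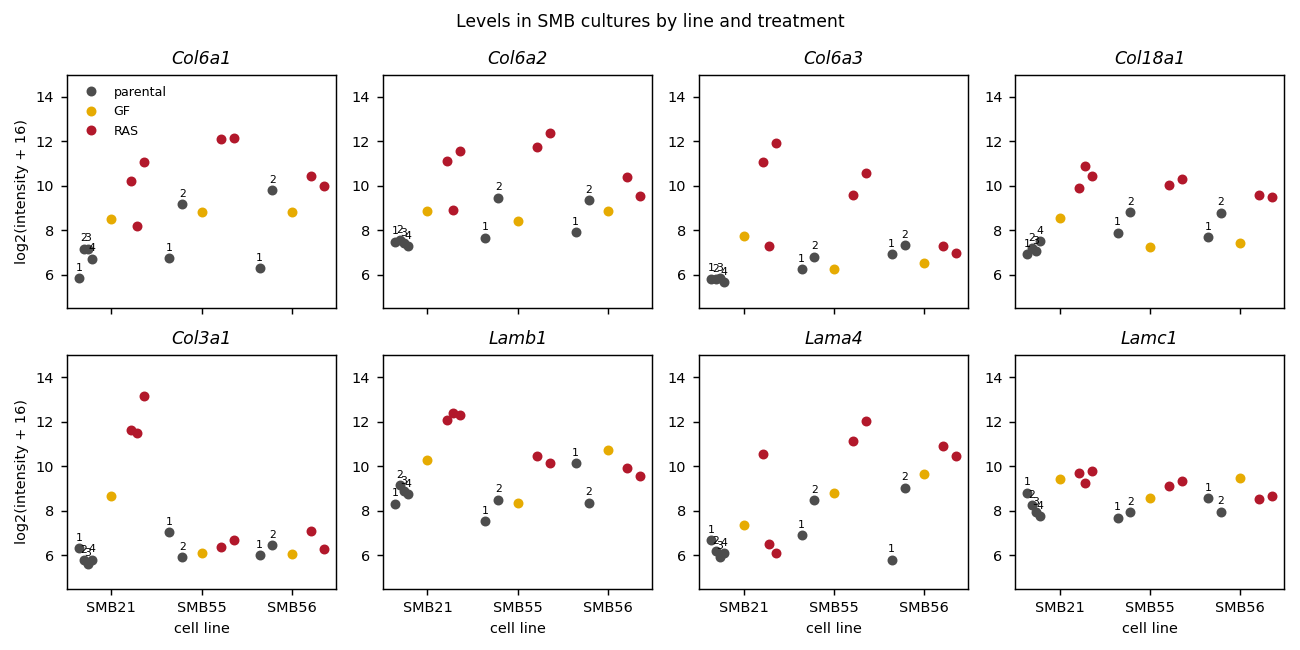
Levels of 8 members in log2(intensity + 16) on each culture array, by line (horizontal axis) and treatment (grey parental, yellow GF, red RAS), with the replicate number above each parental array. The RAS arrays of Col18a1 (9.51 to 10.90) lie above all parental arrays (6.91 to 8.82), and Col3a1 is high in SMB21 RAS cultures only.

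Against GF cultures, RAS cultures had 3 called members, all higher (6.52%, against 11.2% of all genes). Col18a1 was higher by 2.37 (SE 0.44, limma adjusted p = 0.00567), Col6a2 by 2.14 (SE 0.61, adjusted p = 0.0373) and Col4a2 by 2.07 (SE 0.51, adjusted p = 0.0191). For Col6a2 the highest GF array (SMB56, 8.88) lay just below the lowest RAS array (SMB21 replicate 2, 8.91). With the replicate block, which pairs GF arrays with the arrays numbered 1, none was called (adjusted p = 0.0786, 0.135 and 0.13), nor with 1 mean per line and treatment. The count was 5 without the SMB21 GF array and 1 without the SMB55 GF array. Col6a2 lost its call without the GF array of SMB55 (0.207) or SMB56 (0.0808), SMB21 RAS replicate 1 (0.0596) or either SMB55 RAS array (0.0653 and 0.0696), and Col4a2 without the GF array of SMB21 (0.0749) or SMB55 (0.0703). Lamc1 differed by 0.01 (SE 0.28, adjusted p = 0.99) between RAS and GF cultures.

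Most measured genes of collagen synthesis were higher in RAS cultures over the lines. Of 23 measured genes of collagen processing, from prolyl hydroxylases to lysyl oxidases, 16 were called higher and 0 lower in RAS against parental cultures, with a median of 0.85 against -0.05 over all genes (69.6% called, against 32.1%). By line, 15 were called higher in SMB21, 8 in SMB55, and 2 higher with 1 lower in SMB56. The count was between 14 and 16 higher on leaving out any 1 array, and 4 with 1 mean per line and treatment. Pcolce, which enhances removal of the procollagen C-propeptide, changed by 4.31 (SE 0.45, adjusted p = 9.88e-06), and its relative Pcolce2 by 3.38 (SE 0.49, adjusted p = 0.000137). Pcolce read 9.50, 11.94 and 12.03 in SMB21 RAS replicates 1 to 3, 11.61 and 10.05 in SMB55, and 12.19 and 12.07 in SMB56, all above the parental arrays (5.83 to 9.10). The prolyl 4-hydroxylase subunits P4ha2 and P4ha1 rose by 2.60 and 2.11, the cross-linking oxidase Loxl3 by 2.43 and the lysyl hydroxylases Plod1 and Plod3 by 1.97 and 1.75. For P4ha1, parental replicates 1 and 2 read 8.97 and 11.58 in SMB55 and 8.81 and 11.33 in SMB56. In SMB55, RAS replicate 2 lay below parental replicate 2 for P4ha1 (10.96) and near it for P4ha2 (9.33 against 9.25). The calls of Plod2 (0.85) and Colgalt1 (0.62) were each lost without any 1 of several arrays. The collagen chaperone Serpinh1 was not called (-0.36, SE 0.67, adjusted p = 0.714), and its RAS arrays ran from 6.0 to 8.73 and its parental arrays from 6.22 to 9.98. With GF, 2 of the 23 were called higher, Pcolce (2.31, adjusted p = 0.0238) and Bmp1 (1.11, adjusted p = 0.0317), with adjusted p of 0.0643 and 0.166 under the replicate block; Pcolce lost its call without the GF array of SMB55 or SMB56, and Bmp1 without several single arrays, those 2 among them.

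Among 11 measured receptors 4 were called higher and 0 lower with RAS (36.4%, against 32.1% of all genes), with a median of 0.10: the laminin-binding integrin subunits Itga6 (3.58, SE 0.46, adjusted p = 5.97e-05) and Itga3 (1.86), their partner Itgb1 (1.81, SE 0.23, adjusted p = 5.41e-05) and Dag1 (1.33), which encodes the laminin receptor dystroglycan. Itga6 read 12.32, 11.53 and 11.58 in SMB21 RAS replicates 1 to 3, 13.00 and 12.92 in SMB55 and 10.95 and 11.19 in SMB56, against 7.52 to 9.93 in parental arrays. Of 8 measured basement membrane partners, Nid1, which links laminin to collagen IV, rose by 2.12 (SE 0.42, adjusted p = 0.00154) and Agrn, a heparan sulfate proteoglycan, by 1.36, while Smoc1 changed by -1.41 (adjusted p = 0.0289) and lost its call without SMB21 parental replicate 1, SMB21 RAS replicate 2 or 3, SMB55 parental replicate 2 or SMB55 RAS replicate 2. The 3 called partners were 37.5% of those measured, against 32.1% of all genes. With 1 mean per line and treatment 1 receptor and no partner was called.

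The processing genes did not move in 1 direction in tumors and parental cultures. Against cerebellum, MB had 0 of 23 higher and 4 lower, led by Pcolce (-3.99, adjusted p = 0.0115), Sparc (-2.63), and Serpinh1 (-2.48). Parental cultures had 7 higher and 4 lower against cerebellum, and 6 higher and 1 lower against MB. Against cerebellum, Plod2 (1.73), Crtap (1.56) and P4ha1 (1.55) were higher and Pcolce (-3.07) and Serpinh1 (-2.67) lower. Of all genes, 8.68% were called in MB against cerebellum. In parental cultures 22.6% were called against cerebellum and 11.1% against MB.

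The summed fibroblast and meningeal markers, with Mgp the brightest on most of these arrays, were higher with RAS in SMB21 and SMB55. Few of the markers were called in SMB55. The summed intensity of the 14 fibroblast and meningeal markers was 11475 to 35820 in SMB21 RAS, 15323 to 29583 in SMB55 RAS and 7126 to 7625 in SMB56 RAS cultures. The parental sums of these lines were 3474 to 6004, 4861 to 13442 and 8299 to 10551, so that the SMB56 sums were lower with RAS, and the GF sums were 2842 to 3961. Of the 14, 6 were called higher and 3 lower over the lines (64.3% called, against 32.1% of all genes). Within SMB21 6 were called higher and 1 lower (19.4% of all genes were called), and within SMB55 2 higher (21.5%). Within SMB56 1 was higher and 1 lower (12%). The sums are of linear intensity, so the brightest marker weighs most. Mgp was the brightest of the 14 in every SMB21 RAS array and in SMB55 RAS replicate 2. It read 14.84, 12.24 and 12.62 in SMB21 RAS replicates 1 to 3, against 5.61 to 6.54 in SMB21 parental arrays. In replicate 1 the next brightest was Crabp2 at 11.17. In SMB55 Mgp read 12.31 and 14.29 with RAS against 5.78 and 11.21 in parental arrays. Igf2 read 12.35 and 11.98 against 10.07 and 12.45. Aldh1a2 stayed below the lower quartile on every culture array. Dcn read 7.38, 9.01 and 11.92 in SMB21 RAS replicates 1 to 3 and 5.75 to 6.89 in the other RAS cultures, against 5.47 to 6.25 in parental cultures. Pdgfrb, a pericyte and fibroblast receptor, read 9.05, 11.56 and 11.30 in those SMB21 arrays and 4.81 to 5.14 in every other culture. In SMB21 RAS cultures Col3a1 and Pdgfrb were both high. In SMB55 RAS cultures collagen VI was high while Pdgfrb stayed at the bottom of the range. Pdgfrb was as low in SMB56 RAS cultures, where none of the 4 measured collagen VI and VII chains was called. There the lower Col6a1 RAS array (9.97) lay just above parental replicate 2 (9.81), and Col6a3 overlapped. Of 9 pericyte and smooth muscle markers 3 were called higher and 1 lower (44.4% called, against 32.1% of all genes). Among those higher was Rgs5 (2.66, limma adjusted p = 1.53e-05), also in lines where Pdgfrb was low. Rgs5 read 8.03 and 7.81 in SMB55 RAS arrays against 5.44 and 5.60 in parental ones, and 6.62 and 7.31 against 5.21 and 5.10 in SMB56. Within SMB55 1 of the 9 was called higher and 1 lower (21.5% of all genes were called), and within SMB56 1 higher and 0 lower (12%). Abcc9 and Myh11 lay below the lower quartile on every RAS array. Both did so on the P6 and adult cerebellum arrays as well. In SMB21 RAS replicate 3, Acta2 read 12.56, Tagln 10.22 and Notch3 10.18, against at most 6.68, 6.83 and 7.35 in SMB21 parental arrays. The summed pericyte and smooth muscle intensity was 1953 to 11633 in SMB21 RAS arrays, against 560 to 767 in SMB21 parental arrays. It was 2729 to 3427 against 853 to 2259 in SMB55, and 5897 to 7274 against 2757 to 4997 in SMB56. Of 10 endothelial markers 2 were called higher (20%, against 32.1% of all genes). They were Flt1 (2.41, limma adjusted p = 0.000236, up to 10.97 in SMB55 RAS replicate 2) and Kdr (0.48, adjusted p = 0.0121). Cdh5 was not called (0.78, adjusted p = 0.367) but read 10.39 in SMB21 RAS replicate 3, against 5.29 to 6.91 in SMB21 parental arrays, while Cldn5 (5.93 to 6.24 in RAS arrays, 12.08 and 12.19 at P6) stayed low. The part of these cells in the result was not tested.

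Cartilage-type collagens, and some members that rose with RAS, were far apart between parental arrays of the same line. Col11a1 read 10.92 and 13.51 in SMB55 parental replicates 1 and 2, and 9.38 and 14.48 in SMB56. RAS arrays of those lines (12.48 to 13.40) lay between them. Col9a1 read 10.01 and 13.12, and 10.82 and 14.05, in the same arrays, and Col2a1, the main cartilage fibril chain, 5.75 and 9.38, and 7.32 and 10.29. Col11a2 read 6.62 and 10.02, and 6.09 and 11.25. Col16a1 (7.84 and 10.46, and 6.53 and 10.71) and Lama4 (6.92 and 8.49, and 5.80 and 9.04) had the same order, and in SMB55 and SMB56 the GF values of Col16a1 and Lama4 were nearer to replicate 2. Col6a1 (6.73 and 9.19, and 6.29 and 9.81) and Col6a2 (7.67 and 9.46, and 7.93 and 9.35) had that order too. Their RAS arrays lay above both parental arrays in these lines. In SMB56 the GF values of Col11a1, Col9a1, Col2a1 and Col11a2 (11.55, 10.38, 5.93 and 6.11) were nearer to replicate 1. None of Col2a1, Col9a1, Col11a1 and Col11a2 was called with GF or RAS over the lines.

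**Figure D5:**
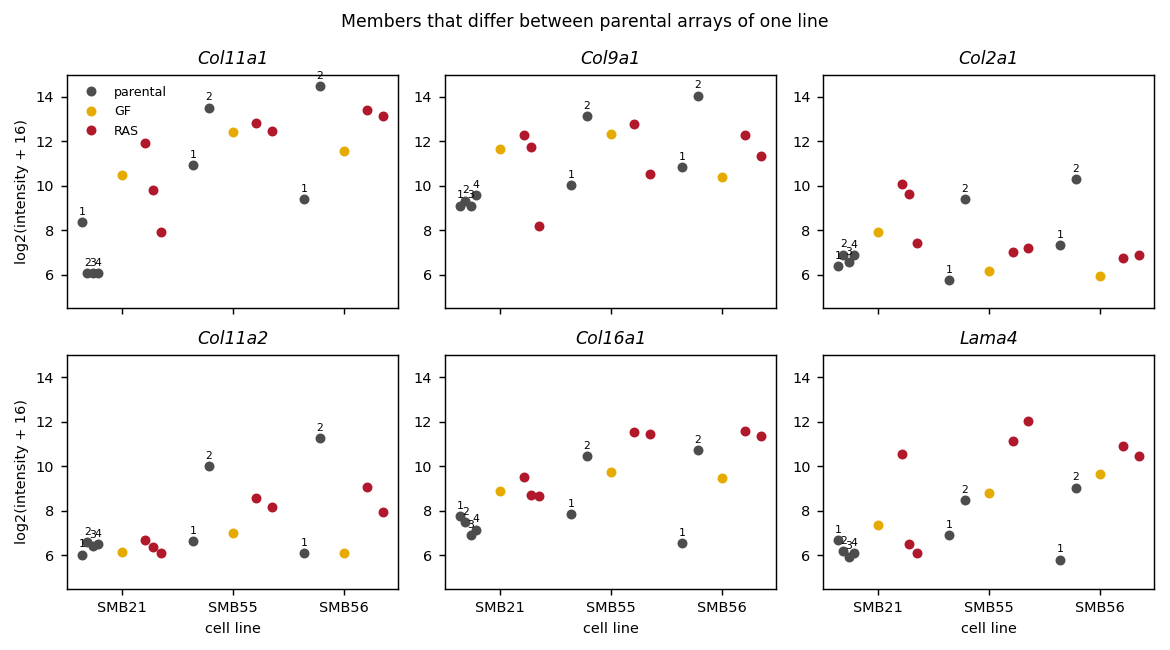
Levels of 6 members in log2(intensity + 16) on each culture array by line and treatment (grey parental, yellow GF, red RAS), with the replicate number above each parental array. In SMB55 and SMB56 parental replicate 2 lies above replicate 1 for all 6 genes, by 5.10 for Col11a1 in SMB56 (14.48 against 9.38).

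Col4a5, an X-linked collagen IV chain of kidney and other specialised basement membranes, separated SMB21 from the other lines under every treatment. It read 4.95 to 5.16 on all SMB21 arrays except parental replicate 1 (6.78), and 7.74 to 11.24 on all arrays of SMB55 and SMB56, with no overlap between SMB21 and the others. In tissue it read 10.32 and 10.03 at P6, 8.17 in the adult and 6.30, 7.71 and 7.07 in tumors. Its paralog Col4a6 lay between 5.79 and 6.55 on all but 2 culture arrays. Of the 46 members, Col17a1 and Col4a4 were below the lower quartile of all genes on all 24 arrays, Col10a1 on 23 and Col14a1 and Lama3 on 22. Col1a1, Col13a1 and Col26a1 were below it on 21. Changes of these genes between such arrays are compressed toward 0.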

How the data were processed

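Total RNA from the 24 samples was hybridised to Affymetrix mouse arrays, per the labels' protocols. The authors deposited 1 linear intensity per probe set and array. Which tool summarised and normalised these intensities is not stated in the labels or files used here. Of 22690 probe sets, 20393 carried 1 gene symbol, 691 several and 1606 none, and the first kind were used. Intensities were converted to log2(intensity + 16), which understates changes of dim genes, and each gene was read from its brightest probe set (12394 genes).

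Tests were made with limma 3.58.1 in R 4.3.3 with Benjamini-Hochberg adjustment over all genes, and checked on simulated data. Tissue comparisons used 1 mean of parental arrays per line. Culture comparisons had the line as a term, and within-line responses and their difference came from 1 fit of line and treatment. The deviations of GF arrays correlated with those of the parental arrays of the same number (r of 0.216, 0.339 and 0.104). These were taken from treatment means over all lines, so they include line differences and cannot show pairing by number. Values from the paired fit are given all the same. RAS deviations, taken from the mean of their own line and treatment, did not correlate positively (-0.154 to -0.020). No depth exists for arrays, and the number of arrays limits the precision.

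The members and gene lists were chosen with earlier results of these data known. Named with values are the called members, up to 6 rises and 6 falls per comparison, and Col1a1, Col1a2, Col3a1, Col4a1, Col4a2, Col18a1, Lama1, Lama2, Lama4, Lama5, Lamb1, Lamb2 and Lamc1; other genes were named after their values were seen.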

Additional observations from a re-analysis of the deposited data

Results flagged for a closer look

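In SMB21, 3 of 46 members had 1 parental array far from the other 3, by a rule under which chance marks about 1 in 20 groups of 4 arrays. Col11a1 read 8.37 in parental replicate 1 and 6.07 to 6.08 in the others. Col4a5 read 6.78 in the same array and 5.05 to 5.12 in the others. Col6a3 read 5.65 in parental replicate 4 and 5.81 to 5.84 in the others, a small gap.

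The RAS response differed between lines for Col3a1, by 6.18 log2 units between SMB21 and SMB55 (limma interaction test, adjusted p = 0.00112). It also differed for Col4a2, by 2.87 between SMB21 and SMB56 (adjusted p = 0.048), a call that did not hold on leaving out many single arrays.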

How the results depend on the processing

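Among single members, 1780 of 1994 alternative values of called changes kept their call, 214 kept their direction but missed the threshold, and 0 turned. Of 2516 values of uncalled changes, 96 passed the threshold. Counts of called members moved by over 1.5 times as follows, and the cause was not tested. MB against cerebellum (4) gave 13 with P6 alone as control, 7 with all parental arrays and line as a random block, and 11 with a replicate block of P6 and tumor replicates 1 and 2, with 2 to 13 on leaving out 1 array. SMB against MB (3) gave 8 with a pseudocount of 1, 6 with arrays centred (1 higher and 5 lower), 6 with the mean of probe sets, 6 with a trended robust prior, 11 with P6 alone, 5 with only the groups compared, 8 with the random block and 5 with parental arrays numbered 1 left out, with 1 to 11 on leaving out 1 array or line. SMB against cerebellum (14) gave 9 with only the groups compared and 7 with the P6 arrays as 1 sample, with 7 to 20 on leave-outs. GF against parental (1) gave 0 with the replicate block, 0 with 1 mean per line and treatment and 0 against the parental arrays numbered 1, with 0 to 2 on leave-outs. RAS against parental (17) gave 4 with 1 mean per line and treatment and 16 with the replicate block, where Col3a1 missed (adjusted p = 0.0628), with 17 to 19 on leave-outs; SMB55 numbers crossed also gave 16. RAS against GF (3) gave 0 with the replicate block and 0 with 1 mean per line and treatment, with 1 to 5 on leave-outs. Within SMB21 (15) leave-outs gave 13 to 18. Within SMB55 (13) the count was 7 without parental arrays numbered 1 and GF arrays, and 0 to 16 on leave-outs. Within SMB56 (2) it was 1 without the genes of lowest mean level, and 1 to 7 on leave-outs. The response by line (2) gave 5 with the mean of probe sets and 5 without parental arrays numbered 1 and GF arrays, with 1 to 4 on leave-outs. Comparisons that leave out parental arrays numbered 1, cross numbers, count P6 as 1 sample or lie within a line were chosen after seeing the data. Signal limits members below the lower quartile, where changes are compressed.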
